A study of Mus musculus with 15 samples.

Results

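The 10 genes described here, Tet1, Tet2, Tet3, Egln1, Egln2, Egln3, Hif1an, Alkbh5, Fto and P4ha1, encode dioxygenases that use 2-oxoglutarate but do not act on histones. They are 10 of 21770 protein-coding genes in the GENCODE M39 annotation of GRCm39. For each gene, every peak of trimethylated histone H3 lysine 4 (H3K4me3) that overlapped the 2000 bp either side of any of its annotated transcript starts was taken as a promoter peak. This mark, found at promoters that are active or ready for activation, was profiled by ChIP–seq in mBA cells, which the sample labels call primary cells of brown adipose tissue and the methods describe as brown preadipocytes from newborn mice, immortalized with SV40 large T antigen and differentiated to mature adipocytes. The 3 conditions were untreated WT cells, WT cells given 2-hydroxyglutarate (WT + 2HG) and untreated CLPP-KO cells. For 2HG the methods name a cell-permeable octyl ester of the d form, dissolved in DMSO. The sample titles call the other cells untreated and name no DMSO control. The CLPP-KO cells lack the mitochondrial protease CLPP and were grown with added uridine. They came from mice in which a β-actin promoter drives the Cre that deletes Clpp throughout the body. Each condition had 4 ChIP samples and 1 input sample. The comparison asks how the promoter mark differs when 2HG is added or CLPP is lost. The study describes mBA lines derived from control and knockout mice, with animals pooled, and counts an independent culture as a replicate. Loss of CLPP therefore cannot be told apart from a difference between cell lines.

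2-Oxoglutarate dioxygenases couple the oxidation of a substrate to the decarboxylation of 2-oxoglutarate, with iron as a cofactor and oxygen as the other substrate. 2HG resembles 2-oxoglutarate and can compete with it at the active site, so the products of these genes are known candidates for inhibition by 2HG. The TET enzymes oxidize methylcytosine in DNA, the EGLN enzymes hydroxylate prolines of the HIF alpha subunits and thereby mark them for degradation, and Hif1an hydroxylates an asparagine that HIF needs for its coactivators. Alkbh5 and Fto remove methyl groups from m6A in RNA, and P4ha1 is a catalytic subunit of the enzyme that hydroxylates collagen prolines. A promoter mark reports on the gene and not on the activity of its enzyme.

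The 4 replicates of each condition entered peak calling jointly, and the result is a single list per condition. No spread between replicates exists, and no test between conditions was made. The lists held 12342 peaks in WT, 14059 with 2HG and 15118 in CLPP-KO, and they hold no read counts. The study states a sequencing depth, but not for each list, and it could not be checked against these files. The area of a peak, the sum of its signal as the peak caller gave it, is not scaled between lists. It was therefore turned into a percentile, the share of the list's peaks with that area or a smaller one. A gene's strongest promoter peak was the peak with the largest area. Of 12 brown adipocyte markers, 3 had a promoter peak in WT and 6 in either other list, and Ucp1, Ppargc1a, Dio2, Adipoq and Fabp4 had none in any list. None of 4 macrophage and blood markers had a promoter peak in any list, and of 5 preadipocyte or fibroblast markers 3 had a peak in WT, 3 with 2HG and 4 in CLPP-KO. Of 4 skeletal muscle markers, Myod1 and Pax7 had a peak in CLPP-KO and in no other list. Of 3 endothelial markers, Kdr had a peak in every list, and of 3 neuronal or Schwann cell markers none had a peak in WT, 1 did with 2HG and 2 in CLPP-KO. The part of these differences in the results was not tested. A promoter peak over Clpp itself was listed in all conditions, at the 39.9th percentile in WT, 45.2 with 2HG and 43.4 in CLPP-KO, and a mark at its promoter does not check the deletion.

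Sequences at edges, gaps and starts that the results below refer to are given first, all 5′ to 3′ on the gene's strand in GRCm39, in lower case with each CG in capitals. Hif1an, the only member without a WT promoter peak, is shown by the first 300 bases of its CLPP-KO peak. P4ha1 and Egln2 are shown by the stretch upstream of their WT peak that a peak of another list covered. Alkbh5 and Fto are shown by the gap that separated a pair of neighbouring peaks, and Tet1 by a start that was marked in every list and by its canonical start, which was marked in none.
Hif1an, chr19:44551241-44551540, plus strand: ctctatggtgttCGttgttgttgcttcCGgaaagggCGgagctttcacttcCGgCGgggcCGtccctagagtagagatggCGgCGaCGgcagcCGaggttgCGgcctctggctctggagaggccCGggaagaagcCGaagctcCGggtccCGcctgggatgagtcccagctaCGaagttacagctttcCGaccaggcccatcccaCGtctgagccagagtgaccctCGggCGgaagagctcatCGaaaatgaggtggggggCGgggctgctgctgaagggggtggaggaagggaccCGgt
P4ha1, chr10:59159028-59159169, plus strand: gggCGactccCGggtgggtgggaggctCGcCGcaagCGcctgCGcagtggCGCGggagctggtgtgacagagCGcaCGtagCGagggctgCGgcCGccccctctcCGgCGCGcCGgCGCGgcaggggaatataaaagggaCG
Egln2, chr7:26866170-26866344, minus strand: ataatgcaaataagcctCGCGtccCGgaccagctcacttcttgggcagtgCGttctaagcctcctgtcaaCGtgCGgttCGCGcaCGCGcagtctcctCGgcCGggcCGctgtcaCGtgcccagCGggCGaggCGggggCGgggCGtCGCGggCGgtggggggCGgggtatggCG
Alkbh5, chr11:60428278-60428399, plus strand: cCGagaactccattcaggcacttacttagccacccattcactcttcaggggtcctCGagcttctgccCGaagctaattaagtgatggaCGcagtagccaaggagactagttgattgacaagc
Fto, chr8:92039990-92040130, plus strand: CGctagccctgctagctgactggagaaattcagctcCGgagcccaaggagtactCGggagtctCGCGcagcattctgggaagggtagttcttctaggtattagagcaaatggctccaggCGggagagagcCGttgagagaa
Tet1 marked start, chr10:62723028-62723178, minus strand: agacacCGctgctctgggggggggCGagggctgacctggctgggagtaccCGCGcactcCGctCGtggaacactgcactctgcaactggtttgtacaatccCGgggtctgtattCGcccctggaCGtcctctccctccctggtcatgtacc
Tet1 canonical start, chr10:62715718-62715868, minus strand: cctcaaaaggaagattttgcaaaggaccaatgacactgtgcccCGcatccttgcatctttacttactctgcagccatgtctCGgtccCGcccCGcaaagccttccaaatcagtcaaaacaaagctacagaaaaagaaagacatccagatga

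The stretches of Hif1an, P4ha1 and Egln2 were rich in CG, with 23, 20 and 24 CG and a GC content of 64.3%, 74.6% and 70.3%. The gap of Alkbh5 held 4 CG in 122 bases and that of Fto 7 in 141. At Tet1 the marked start had 9 CG in 151 bases, and the canonical start, which is the start that the annotation takes as representative, had 4. The letters ACGTG, the core of the hypoxia response element that HIF binds, were read on both strands, so that CACGTG counts on each. They occurred 3 times in the Egln2 stretch and once each in those of P4ha1 and Hif1an. GCGTG, the other form of that core, occurred 1 time in the Egln2 stretch, and TATAAA, the TATA box, 1 time in that of P4ha1, close to its starts.

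All members but Hif1an carried the mark in WT, and all 10 carried it in both other lists. The 9 of 10 in WT stood beside 51.3% of all protein-coding genes, and the 10 of 10 in the other lists beside 56.4% with 2HG and 58.2% in CLPP-KO. Hif1an was the only member with a peak in both other lists and none in WT, a pattern that 4.75% of coding genes shared. No member marked in WT lacked a peak elsewhere. In total the members had 12 promoter peaks in WT, 13 with 2HG and 13 in CLPP-KO, and no member had a further peak in its gene body outside the windows in any list.

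The percentiles of the strongest peaks spanned nearly the whole of each list. Alkbh5 stood highest in every list, at 99.2 in WT, 99.4 with 2HG and 99.1 in CLPP-KO, and Fto lowest, at 12.5, 18.6 and 22.3, so that both m6A erasers lay at opposite ends. The median over the marked members was 72.5 in WT, 66.7 with 2HG and 73.7 in CLPP-KO, beside 59.3, 60.6 and 62.0 over all marked coding genes. The strongest peaks of most members were wide. Their median width was 1370.0 bp in WT, 1298.5 bp with 2HG and 1387.0 bp in CLPP-KO, beside 901.0, 1002.0 and 990.0 bp over marked coding genes. In WT, 8 of the 9 marked members exceeded the coding median in width and 6 in percentile.

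**Figure D1:**
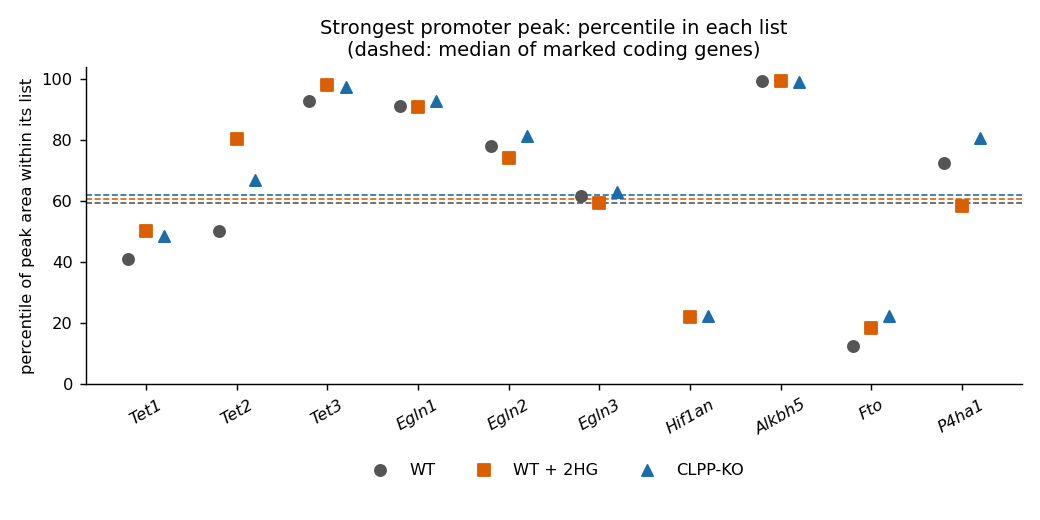
Within-list percentile of peak area (vertical axis, percent of the list's peaks) of the strongest promoter peak of each gene in WT (circles), WT + 2HG (squares) and CLPP-KO (triangles), with dashed lines at the median of all marked coding genes of the list. Alkbh5 lies at 99.1 or above in each list, Fto at 22.3 or below, and Tet2 is spread most, from 50.1 in WT to 80.4 in WT + 2HG.

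Among the TET genes, Tet2 differed most between the lists in percentile of area. By area divided by width, Tet3 differed more from WT, by 24.5 points with 2HG and 21.6 in CLPP-KO. Tet2 differed by 20.9 and 11.7 points on that measure. Tet2 (chr3:133169436-133250900, minus strand), a TET enzyme without a CXXC domain of its own, had a single peak that in WT ran from position -276 to 1455 bp relative to the canonical start. Its percentile was 50.1 in WT, 80.4 with 2HG and 66.9 in CLPP-KO. The difference from WT was 30.3 points in WT + 2HG, and 401 of 11057 coding genes marked in both lists differed upward by at least as much. In CLPP-KO it was 16.8 points, reached by 2329 of 11084 coding genes, and it was 9.37 points when the lists were limited to the same number of peaks. The peak was 1732 bp wide in WT, 2168 bp with 2HG and 2074 bp in CLPP-KO. Its upstream edge moved by little, at -244 bp with 2HG and -271 bp in CLPP-KO, while the downstream edge lay at 1923 and 1802 bp, so that the added width was on the side of the gene body. The peak also covered a start of the noncoding gene Gm42567, whose mark could not be told apart from that of Tet2.

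Tet1 was marked away from its canonical start, and Tet3 at its canonical start and again farther downstream. Tet1 (chr10:62640349-62744775, minus strand) had a peak of 916 bp in WT, 1154 bp with 2HG and 1331 bp in CLPP-KO, all over the start at position -7310 bp, upstream of the canonical start. The WT + 2HG peak also reached the start at -7498 bp. None of the other 8 starts, the canonical start among them, lay inside a peak in any list. The percentile of Tet1 was 41.1, 50.2 and 48.6 in WT, WT + 2HG and CLPP-KO, below the coding median of each list. Tet3 (chr6:83339355-83436066, minus strand) had a strong peak over its canonical start, of 1798, 1779 and 1819 bp and at the 92.8, 97.9 and 97.4th percentile in the same order. A weaker peak lay about the starts some 15 kb downstream (its 5′ edge was at 14719 bp in WT, 14358 bp with 2HG and 14383 bp in CLPP-KO). It was 653 bp wide and at percentile 31.7 in WT, 1131 bp and 53.6 in WT + 2HG, and 780 bp and 46.2 in CLPP-KO. In the latter 2 lists it also covered a start of B230319C09Rik.

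**Figure D2:**
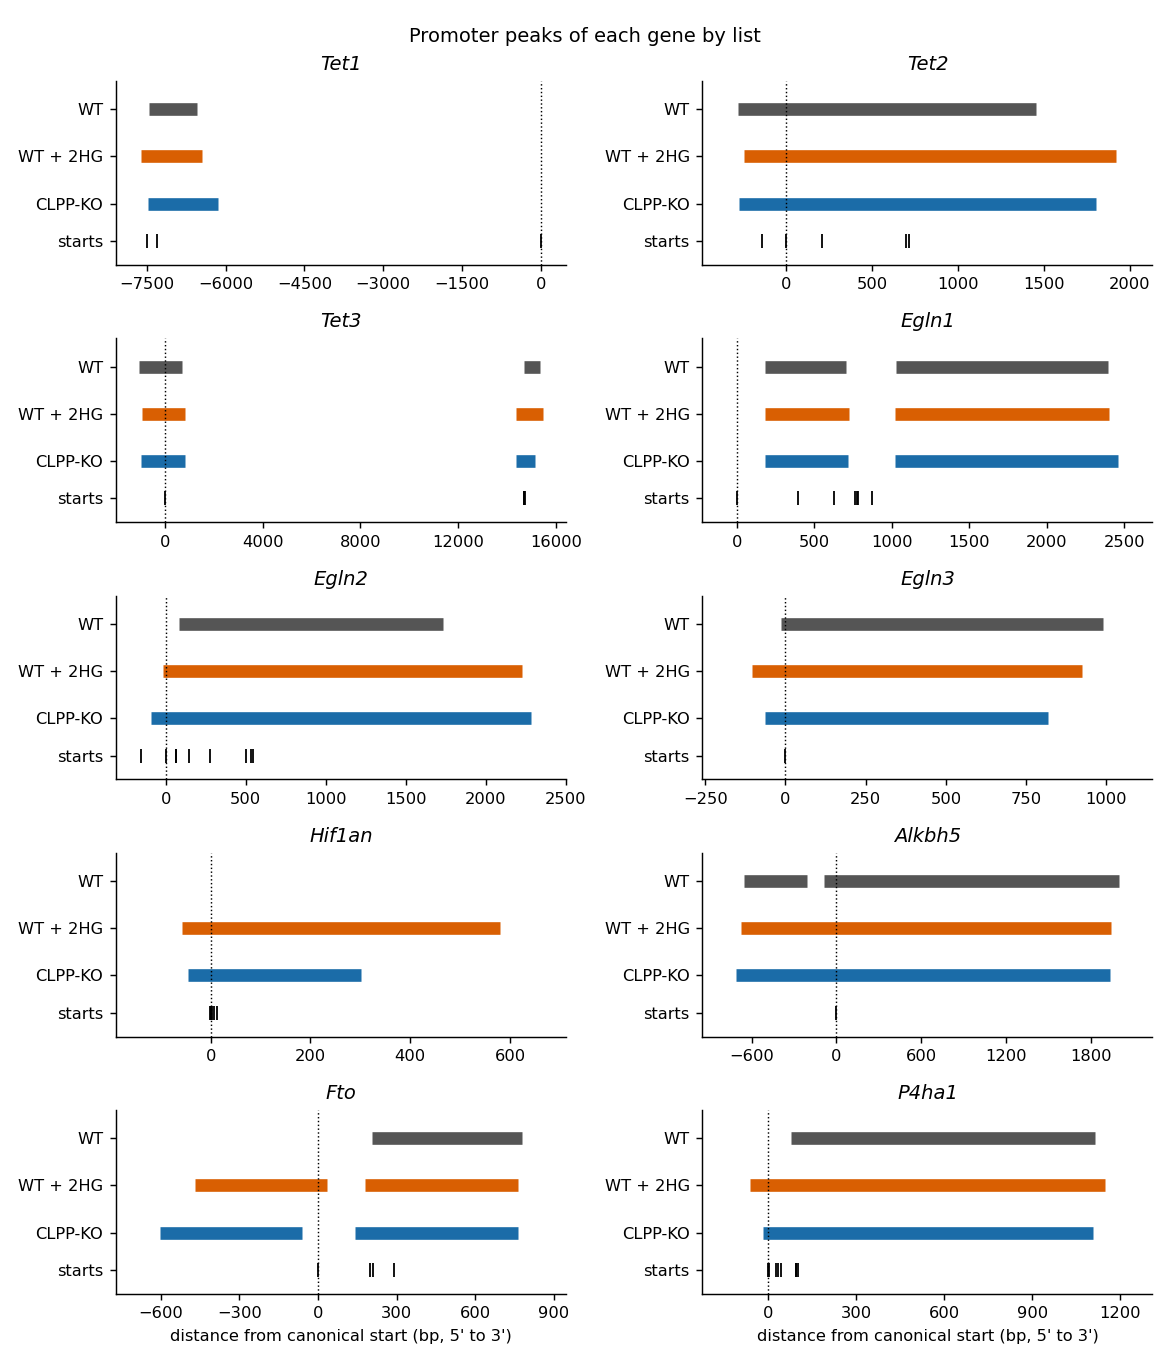
Promoter peaks of each gene in the 3 lists (bars) and the annotated starts (ticks) by distance from the canonical start in bp, along the direction of transcription, with a scale of its own for each gene. The Tet1 peaks lie far upstream of the canonical start, Hif1an has no bar in WT, and the pair of WT bars of Alkbh5 is a single bar in the other lists.

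The HIF hydroxylases were marked to very different degrees. Egln1 (chr8:125635308-125676865, minus strand), the main oxygen-sensing prolyl hydroxylase, had a pair of peaks in every list with almost the same edges. The larger peak was 1370 bp wide in WT, 1382 bp with 2HG and 1443 bp in CLPP-KO, at the 91.1, 90.8 and 92.6th percentile. The smaller, nearer to the start, was 524, 541 and 539 bp wide in the same order and stood at 33.9, 52.4 and 42.0. The gap between them measured 323, 293 and 299 bp and lay downstream of the canonical start, which itself was inside no peak. Among the members Egln1 had one of the smallest differences between lists, with -0.26 points with 2HG and 1.5 points in CLPP-KO for the larger peak.

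Egln2 (chr7:26853588-26866408, minus strand) had the broadest peaks of the HIF hydroxylases, with 1654 bp in WT, 2244 bp with 2HG and 2375 bp in CLPP-KO. These were 35.7% and 43.6% wider than in WT. In WT the peak began 83 bp downstream of the canonical start, whereas its edge was at -18 bp with 2HG and -92 bp in CLPP-KO. Peaks covered 5 of its 10 starts in WT and 8 in either other list. The percentile moved little beside this width, at 78.1 in WT, 74.2 with 2HG and 81.2 in CLPP-KO. Egln3 (chr12:54225767-54250673, minus strand), a hydroxylase known to be induced by HIF, has a single annotated start, which lay inside a peak in every list. That peak was 1004, 1030 and 882 bp wide and at percentile 61.8, 59.2 and 62.9 in WT, WT + 2HG and CLPP-KO, so that it was the only member whose CLPP-KO peak was narrower than in WT, with a ratio to the WT width of 0.878.

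Hif1an (chr19:44551286-44568723, plus strand), which encodes the asparaginyl hydroxylase FIH, had no peak within 2000 bp of any of its 5 starts in WT. In WT + 2HG a peak of 639 bp and in CLPP-KO a peak of 348 bp covered all 5, with summits 209 and 112 bp downstream of the canonical start. Both were weak within their lists, at percentile 21.9 and 22.4, with a summit −log10 p of 6.97 and 7.83. They remained in the lists at a summit p of at most 1e-05, at an area of at least 1000 and in lists of equal size. Such cuts remove peaks and add none, so they say nothing about the missing WT peak.

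The m6A erasers, which share a substrate, differed in every measure of the mark. Alkbh5 (chr11:60427207-60449346, plus strand) had a peak of 2089 bp over its canonical start in WT and a peak of 443 bp at percentile 9.4 upstream of it, with 122 bp between them. In WT + 2HG a single peak of 2617 bp and in CLPP-KO a single peak of 2652 bp covered both and the gap. Each was wider than the strongest WT peak, by 25.3% and 27.0%, but when peaks within 1000 bp were merged the ratios to WT were 0.986 and 0.999, so that the whole marked stretch was no wider than in WT. Fto (chr8:92039953-92395070, plus strand) had a peak of 573 bp in WT, 586 bp with 2HG and 622 bp in CLPP-KO, each beginning downstream of the canonical start. An additional peak upstream, of 506 bp with 2HG and 541 bp in CLPP-KO and at percentile 13.6 and 13.3, overlapped no WT peak. It covered a start of Rpgrip1l, a ciliary gene transcribed the other way, and the mark of both genes cannot be told apart there. The Fto gap measured 141 bp with 2HG and 203 bp in CLPP-KO. When peaks within 1000 bp were merged, the Fto ratios to the WT width were 2.15 and 2.38, with the Rpgrip1l start inside the merged stretch. The WT peak of Fto was itself weak, with an area of 496.9 and a summit −log10 p of 4.87, and it dropped out of the WT list when peaks below an area of 1000 or above a summit p of 1e-05 were left out.

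P4ha1 (chr10:59159092-59209126, plus strand) stood at percentile 72.5 in WT, lower with 2HG, at 58.3, and higher in CLPP-KO, at 80.6. The difference of -14.1 points in WT + 2HG was among the lower ones, at the 5.27th percentile of coding genes, while that of 8.08 points in CLPP-KO was near their middle, at the 58.4th. In lists of equal size the differences were -19.9 points with 2HG and 3.71 points in CLPP-KO. With percentiles taken among coding genes marked in all 3 lists, they were -23.8 and 4.84 points. Ranked by summit −log10 p in place of area, the differences were -43.1 and -11.0 points. The peak was 1039 bp wide in WT, 1215 bp with 2HG and 1127 bp in CLPP-KO. The WT peak began 78 bp downstream of the canonical start, and the edges of the other peaks lay upstream of it, at -64 and -18 bp, so that they covered all 9 starts and the WT peak 4. P4hb, which encodes the beta subunit of the same collagen hydroxylase, stood at 69.7 in WT, 87.9 with 2HG and 91.5 in CLPP-KO, with widths of 1325, 2022 and 2278 bp.

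**Figure D3:**
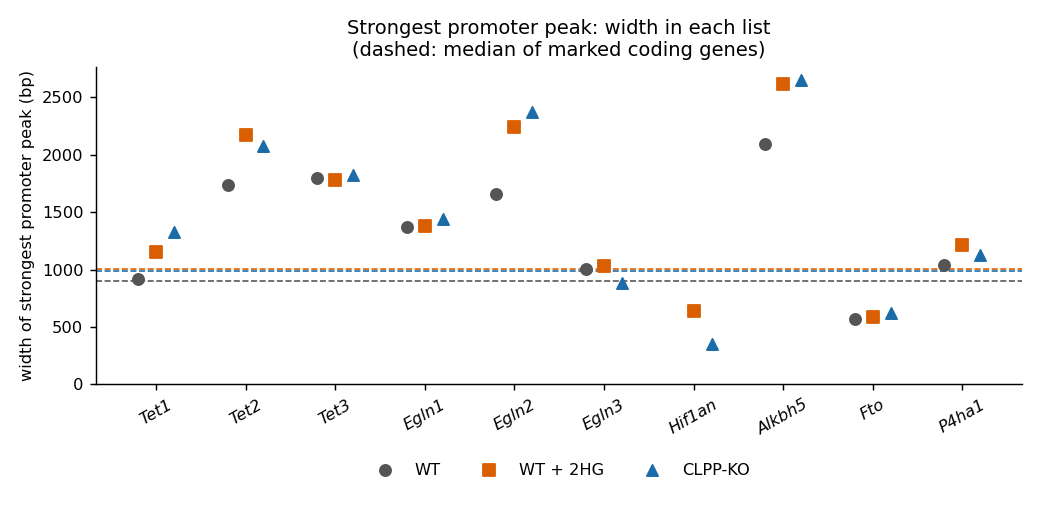
Width in bp of the strongest promoter peak of each gene in WT (circles), WT + 2HG (squares) and CLPP-KO (triangles), with dashed lines at the median of all marked coding genes of the list. Every gene marked in WT apart from Tet3 and Egln3 is wider in both other lists than in WT, some only slightly. Tet3 is narrower than in WT with 2HG, and Egln3 in CLPP-KO.

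The members were read against all coding genes, and with 9 members no share below is a result about them as a group. In WT + 2HG, 4 of the 9 members marked in both lists (Tet1, Tet2, Egln2 and Alkbh5) had a strongest peak at least 25% wider than in WT, beside 31.1% of coding genes, and none was narrower by the same fold, beside 5.18%. In CLPP-KO, 3 of 9 (Tet1, Egln2 and Alkbh5) were wider, beside 30.7%, and none was narrower, beside 4.55%. Tet2 and Alkbh5 in WT + 2HG, at 25.2% and 25.3%, lay just inside that limit, and Tet2 in CLPP-KO, at 19.7%, just outside it. At least 10 percentile points above WT stood 1 member in WT + 2HG, beside 32.0% of coding genes, and 1 in CLPP-KO, beside 36.1%, and this was Tet2 in each. Alkbh5, Tet3 and Egln1, at 99.2, 92.8 and 91.1 in WT, had no room to stand 10 points higher. The median WT percentile was 72.5 over the members and 59.3 over marked coding genes, so these counts and shares are not like for like. At least 10 points below stood P4ha1 in WT + 2HG, beside 9.70%, and no member in CLPP-KO, beside 6.56%. Fto in CLPP-KO with 9.82 points and Tet1 in WT + 2HG with 9.09 points lay just outside. In lists of equal size, these differences were -7.66 and 2.16 points. With percentiles taken among coding genes marked in all 3 lists, they were -1.97 and 1.77 points. Both comparisons use the same WT list. The median coding gene itself stood 3.69 points higher in WT + 2HG and 5.27 points higher in CLPP-KO, and the median member 0.217 and 4.54 points. The median width ratio was 1.10 over coding genes in each comparison and 1.17 and 1.09 over the members.

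**Figure D4:**
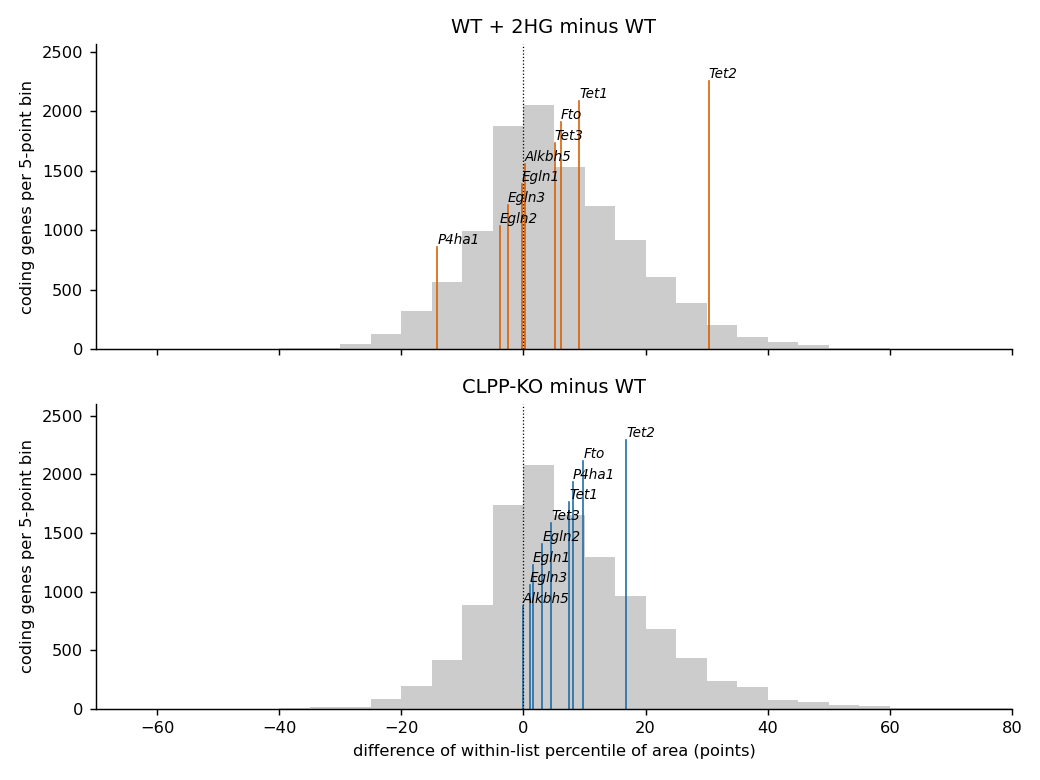
Difference of the within-list percentile of area from WT, in points, for all coding genes marked in both lists (grey, genes per 5-point bin) and for the 9 members marked in both (lines, whose heights carry no value), in WT + 2HG (top) and CLPP-KO (bottom). Tet2 lies farthest to the right in each panel, at 30.3 and 16.8 points, and P4ha1 farthest to the left in WT + 2HG, at -14.1 points.

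At the level of single starts, more starts of the members lay inside a peak in both other lists than in WT. Of the members' 67 annotated starts, 23 lay inside a peak in WT, 41 with 2HG and 39 in CLPP-KO, beside 42.3%, 51.5% and 51.8% of all starts of coding genes. Starts of a gene can lie a few bases apart under the same peak, so they are not independent. Hif1an went from 0 starts in WT to 5 in each other list, and P4ha1 from 4 to 9, each through a single peak. The canonical start was inside a WT peak for 4 members, Tet2, Tet3, Egln3 and Alkbh5. Those of Egln2, Hif1an and P4ha1 were inside a peak in both other lists as well, and that of Fto in WT + 2HG, which gave 8 members with 2HG and 7 in CLPP-KO. The share of all coding genes was 28.8% in WT, 40.5% with 2HG and 41.2% in CLPP-KO. Among members whose edges lay within 4000 bp of the canonical start, the upstream edge of the strongest peak lay farther upstream than in WT in 6 of 8 in each comparison, with a median of -58.5 bp with 2HG and -56.0 bp in CLPP-KO. Over coding genes the medians were -43.0 and -39.0 bp, and 73.9% and 72.9% lay farther upstream. 

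The promoters of the members were rich in GC and CG. In the RefSeq promoter table (GRCm38.p6, 300 bases around a start), all 10 members matched, with 11 promoters, each found once in GRCm39. Their median GC content was 61.7% and their median number of CG 22.0 in 300 bases, beside 52.7% and 7.0 over 32851 promoters. Egln1 had the most, with 60 CG and 86.0% GC, and the second promoter of Egln2, which lies inside its broad peak, the fewest, with 4 CG. ACGTG occurred in 5 of the 11 member promoters (those of Tet2, Egln1, Egln3 and P4ha1 and the promoter of Egln2 at its upstream starts), beside 19.6% of all promoters. GCGTG occurred in 5 of the 11 (both of Egln2 and those of Egln1, Alkbh5 and P4ha1), beside 32.4%. ACGTG and GCGTG each contain a CG, and the background was not matched for CG, so no enrichment can be read from these shares. TATAAA occurred in 1 of the 11, that of P4ha1, beside 13.6%.

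Other 2-oxoglutarate dioxygenases on a chosen list were examined beside the members. Of 33 such genes in the annotation, 27 had a promoter peak in WT, 29 with 2HG and 28 in CLPP-KO, and 26 in all lists. Asphd1 and Phyh, the latter a peroxisomal hydroxylase of phytanoyl-CoA, had a peak in both other lists and none in WT, as Hif1an did. Asphd1 stood at 24.7 with 2HG and 30.9 in CLPP-KO, and Phyh at 26.7 and 19.8. Phyhd1 had a peak in WT + 2HG alone, at percentile 2.3. Jmjd8 had one in WT alone, 1809 bp wide and at percentile 64.9, while Alkbh8, Ogfod3 and Bbox1 had none. Of the 26 genes marked in all lists, 7 stood at least 10 points higher and 4 lower than WT in WT + 2HG, and 9 higher and 1 lower in CLPP-KO. The largest difference in CLPP-KO was that of Asphd2, with 28.0 points, and the lowest that of Alkbh3, a demethylase of alkylated nucleic acids, with -16.0 points. By the mean absolute difference of the percentiles over the 3 lists, among these 26 genes, Riox1 was nearest to Egln1 (1.98 points) and to Tet3 (4.97), P4ha2 to Egln2 (2.59), Plod1 to Tet1 (3.12), Ogfod2 to Tet2 (5.32) and P4htm to Egln3 (5.34).

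**Figure D5:**
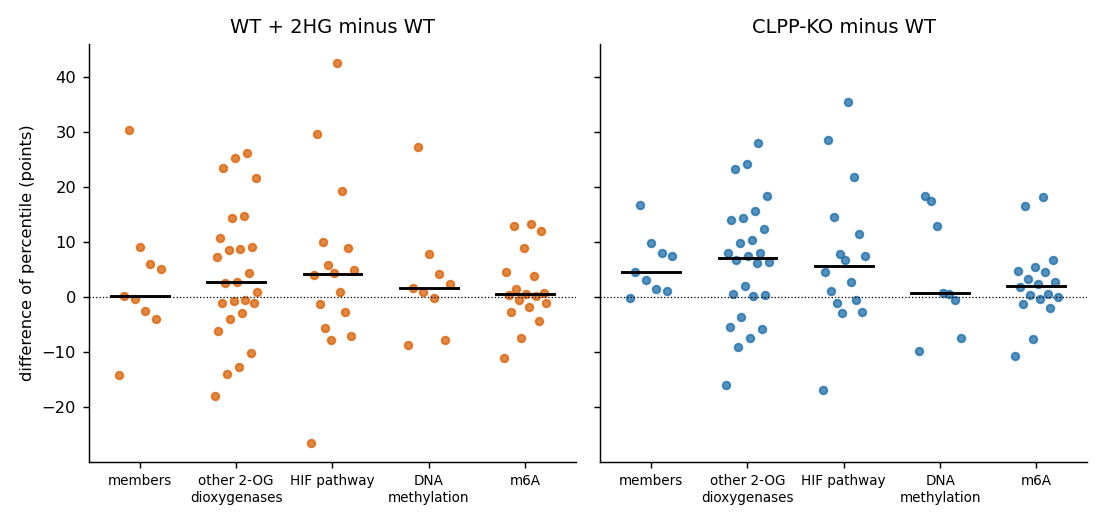
Difference from WT of the within-list percentile of area, in points, for the members and for 4 related gene lists in WT + 2HG (left) and CLPP-KO (right); each point is a gene marked in both lists, and bars are medians. The medians of the members are 0.217 and 4.54 points, and every list has genes on either side of 0.

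Of the 18 genes of the HIF pathway, 16 were marked in WT and 17 in each other list. Hif1a stood at 85.9 in WT, 94.8 with 2HG and 93.4 in CLPP-KO, and Vhl, the ligase subunit that binds hydroxylated HIF alpha, at 59.2, 63.5 and 67.0. Pgk1, a glycolytic enzyme and HIF target, had no WT peak and stood at 3.0 with 2HG and 18.7 in CLPP-KO, and Car9 had a peak in no list. Pgk1 lies on chromosome X, which the peak-calling command stated by the study leaves out. The lists nevertheless hold peaks there, so how that chromosome was handled is unclear. Compared with WT, 4 of 16 genes stood at least 10 points higher and 1 lower in WT + 2HG, and 5 higher and 1 lower in CLPP-KO. In CLPP-KO the highest difference was that of Arnt2, a partner of HIF alpha, with 35.5 points, and the lowest that of Ldha, the lactate dehydrogenase subunit, with -16.9 points. The DNA methylation genes, which set and read the mark that TET enzymes oxidize, were marked in 9 of 10 cases in WT, 9 with 2HG and 8 in CLPP-KO. Dnmt3l had no peak in any list and Ogt, a partner of TET proteins, none in CLPP-KO. Ogt also lies on chromosome X, and its peak was weak elsewhere, at percentile 3.5 in WT and 11.3 with 2HG. Cxxc4, a neighbour of Tet2 in the genome that holds the CXXC domain, had the highest CLPP-KO difference, with 18.4 points, and Tdg, the glycosylase that removes oxidized methylcytosine, the lowest, with -9.81. All 18 m6A genes were marked in every list. In CLPP-KO their differences ranged from -10.6 points for Zc3h13, a subunit of the writer complex, to 18.1 points for Ythdf3, an m6A reader, with a median of 2.13.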

How the data were processed

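The series holds 12 H3K4me3 ChIP–seq samples of mBA cells, 4 per condition (WT, CLPP-KO, WT + 2HG), and 3 inputs. The authors trimmed reads with fastp 0.23.4, mapped them with BWA 0.7.17 to GRCm39, and called peaks with Genrich 0.6.1 (q of 0.05, duplicates removed) on the 4 replicates of a condition and its input together. In the deposited lists each peak carries a score limited to 1000, an area (signal) and a summit −log10 p-value, and the q field is −1 throughout. The smallest deposited area was 200.0, above the minimum area that the methods state, so the threshold that decided whether a weak peak was listed, as for Hif1an in WT, is unclear. A replicate, a read count or a depth cannot be recovered from these lists, so no error is given.

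Peak positions were compared with GRCm39 (0 peaks ended beyond a chromosome; 300 of 41519 lay on unplaced or unlocalized sequences and take part in percentiles only). Overlaps of at least 1 bp with the 2000 bp either side of GENCODE M39 starts were counted. A peak was called wider when its width was at least 25% larger, and higher or lower at a shift of 10 percentile points. Coding genes gave the background. Tested on simulated data, the counting recovered 200 of 200 planted promoter peaks, and overlaps equalled those of bedtools 2.31.1 in 3 of 3 lists. Python 3.11.15, pandas 2.3.3 and numpy 2.4.6 were used.

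The members and lists were chosen with earlier results of these data known. Named beside the members were P4hb, Clpp and, from each related list, genes marked in some lists only or in none, those with the highest and lowest CLPP-KO difference, and the gene nearest in percentiles to each TET and EGLN member. Hif1a and Vhl were named after their values were seen. Of 34 other dioxygenases listed, 33 were in the annotation. Read density and transcripts were not analysed here.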

Additional observations from a re-analysis of the deposited data

How the results depend on the processing

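Each condition has a single list, so differences carry no error, and presence, width and edges may depend on the depth behind each list, which the files do not give. No paired analysis was possible because peak calling took the 4 replicates of each condition jointly, and replicates could not be left out either. Of 161 counts of members recomputed, 147 stayed within 1.5 times the reported count. That total says little, as many of the counts had little room to change. Members lost or narrower numbered 0 in every setting. Other windows, coding starts only and summits inside the window left every count they were applied to unchanged. A fall from 3 to 2 also counted as staying. At a summit p of at most 1e-05 or an area of at least 1000, the members absent from WT and present in WT + 2HG or CLPP-KO numbered 2 (Hif1an and Fto), and those higher than WT in WT + 2HG also numbered 2 (Tet1 and Tet2). The median area of a peak was 2970.5 in WT, 5027.3 with 2HG and 5743.6 in CLPP-KO. As area is not scaled between lists, a fixed cut of 1000 is not equally strict in each. At that area, 3 members stood higher in CLPP-KO (Tet1, Tet2 and P4ha1). In lists of equal size 0 did, as Tet2 differed by 9.37 points. By area divided by width, 2 members stood higher (Tet2 and Tet3) and 2 lower (Egln2 and P4ha1) in WT + 2HG. In CLPP-KO, 5 stood higher on that measure (Tet2, Tet3, Egln3, Fto and P4ha1). By summit −log10 p, 2 stood lower in CLPP-KO (Egln2 and P4ha1). At a fold of 1.5, chosen after the data were seen, 0 members were wider. Merging peaks within 1000 bp reversed the Alkbh5 width ratios, to 0.986 with 2HG and 0.999 in CLPP-KO. It raised those of Fto from 1.02 and 1.09 to 2.15 and 2.38, so that Fto counted as wider in place of Alkbh5. The difference of Tet2 kept its direction throughout, between 20.9 and 40.9 points in WT + 2HG and between 9.37 and 24.1 in CLPP-KO. Using canonical starts only, also chosen after the data were seen, Tet1 had no promoter peak and 8 members were marked in WT. The causes were not tested.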

Other observations

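Some HIF pathway genes were picked after their values were seen. Their percentiles differed more from WT in at least 1 list than that of the strongest peak of any EGLN gene. The smaller Egln1 peak, at 33.9 in WT, 52.4 with 2HG and 42.0 in CLPP-KO, was left out of this bar. The bar is low, as the largest difference of a strongest EGLN peak was -3.88 points (Egln2 in WT + 2HG). Most HIF pathway genes marked in all lists passed it. The median coding gene itself stood 3.69 points higher in WT + 2HG and 5.27 in CLPP-KO. At least 10 points higher stood 32.0% and 36.1% of coding genes. Epas1, which encodes the HIF-2 alpha subunit, stood at percentile 45.4 in WT, 64.6 with 2HG and 74.0 in CLPP-KO, and its strongest peak was 1623 bp wide in WT, 1650 bp with 2HG and 2539 bp in CLPP-KO. Pdk1, a kinase that restrains pyruvate dehydrogenase, stood at 49.4, 79.0 and 71.3 in the same order. Adm, which encodes the vascular peptide adrenomedullin, stood at 35.7 in WT and 34.7 in CLPP-KO but at 9.3 in WT + 2HG. Dnmt3b, a methyltransferase that acts on unmethylated DNA, was likewise picked after its values were seen. It stood at 57.9 in WT, 85.1 with 2HG and 75.3 in CLPP-KO, the same order of lists as Tet2 and Pdk1. These are values of single lists with no replicate error.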
